A study of Homo sapiens with 14 samples.

Results

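SF3A and SF3B are the protein complexes that turn the U2 small nuclear ribonucleoprotein (U2 snRNP) into the particle that grips the branch point of an intron. The 10 genes described here encode their subunits: SF3A1, SF3A2 and SF3A3 of SF3A, and SF3B1, SF3B2, SF3B3, SF3B4, SF3B5, SF3B14 and PHF5A of SF3B. They were taken by gene name from the deposited isoform tables, and are 10 of 57756 genes, with 78 of 195553 isoforms. SF3B14 carries the newer name SF3B6 in GENCODE 29, where it was matched by gene identifier. The subunits are known as ubiquitously expressed genes that dividing cells need.

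The cells were A549, a line derived from a human lung carcinoma, and 7 treatments were sequenced with 2 libraries each, 14 in all. The untreated cells had neither virus nor siRNA. The negative control received an empty vector and a control siRNA, and the knockdown received an empty vector after siRNA against U2AF1. The other 4 treatments received a viral construct after the same U2AF1 knockdown: isoform v1 or v3 of U2AF1, each as wild type or with the S34F mutation. Nothing in the labels says that the 2 replicates of a treatment were separate cultures, and the spread that the p-values rest on may therefore be technical.

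U2AF1 is the small subunit of the factor that recognises the end of an intron, the 3′ splice site, by its final AG, while its partner U2AF2 binds the pyrimidine tract before it. The pair helps to bring in the U2 snRNP, in which SF3B1 and PHF5A hold the branch point adenosine, SF3B3 forms part of the scaffold around SF3B1, SF3B14 sits on SF3B1 near the branch point, and SF3B4 and SF3B2 contact the RNA upstream. SF3A1, SF3A2 and SF3A3 link SF3B to the core of the U2 snRNP. S34F, a recurrent mutation in lung adenocarcinoma and myeloid neoplasms, alters the preference of U2AF1 for the base just before the AG.

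Values are FPKM, the fragments of an isoform per kilobase relative to the mapped fragments, summed over the isoforms of a gene. U2AF1, the targeted gene, had 118 FPKM in the negative control and 22.5 in the knockdown (log2 difference -2.39, adjusted p 0.0081). With the constructs it had means of 2727 FPKM for wild type and 2846 for S34F, in which FPKM cannot separate the construct from the endogenous gene. Relative depth ran from 0.802 to 1.20 between libraries, and the absolute number of reads is unknown. The 5 epithelial markers exceeded 1 FPKM in every library, and none of the 4 alveolar type 2 markers reached it in any library. In bulk RNA, fewer cells of a type and less RNA per cell cannot be told apart.

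SF3B3, the subunit with the largest differences between treatments, is shown first by its splice sites. The sites below belong to its coding isoform and to an extra exon (build GRCh38, chromosome 16, plus strand). Their intron bases could be read from another GENCODE 29 transcript of SF3B3. Readable sites used only by ENST00000566095 or only by ENST00000562874 are not shown. The exons are those of GENCODE 29, in which the coding isoform differs in length from the deposited one. Each site shown holds the last 20 bases of the intron and the first 3 of the exon. The last 3 intron bases, the base that S34F bears on and the AG, are in capitals.

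exon 12 of the coding isoform, chr16:70554426-70554448: tcccttcttttctttttCAGatg
exon 16, chr16:70560449-70560471: gctcctctccttttgatTAGaac
exon 17, chr16:70561610-70561632: ggttttttttttcccctCAGgta
exon 18, chr16:70563856-70563878: gccttgcttttttgtcaTAGgat
exon 24, chr16:70569986-70570008: agtctgtttgtgactcaCAGgca
extra exon between exons 11 and 12, chr16:70550630-70550652: cctttttttctcttccaCAGgtg

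The extra exon itself, at chr16:70550650-70550678, is 29 bases long, so it shifts the reading frame, and 1 annotated isoform, ENST00000567635, holds it and is typed as a target of nonsense-mediated decay: GTGGCTGGTGAAGGTGCTGATCACCACAG. Among the 10 genes the most abundant coding isoforms have 120 such acceptors, of which 22 could be read. C stood before the AG in 13 of these 22, T in 8 and A in 1. The readable sites are those that an intron-retaining or otherwise longer transcript happens to cover, and are no sample of all sites.

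All 10 genes passed the filter on low values, a mean of 1 FPKM. SF3B3 had the highest mean over the 14 libraries, 135 FPKM, followed by SF3B1 with 133, SF3B2 with 124, SF3B14 with 121 and SF3B5 with 102. Lower means were found for SF3A3 (94.9 FPKM), SF3B4 (79.9), SF3A1 (64.4), SF3A2 (38.3) and PHF5A (34.4). Neighbours in this order overlapped in their ranges over the libraries, except SF3A1 (52.4 to 84.3 FPKM) and SF3A2 (27.5 to 51.5). By these sums the SF3A subunits did not share a level, and SF3A2 was below SF3A1 and SF3A3 in all 14 libraries. The sums include short isoforms not typed as coding. The most abundant coding isoforms alone averaged 25.3 FPKM in SF3A1, 21.4 in SF3A2 and 15.6 in SF3A3. That of SF3B3 averaged 45.4 FPKM, below those of SF3B14 (119.8), SF3B2 (103), SF3B5 (102), SF3B1 (73.0) and SF3B4 (62.6).

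The coefficient of variation over the 14 libraries ran from 8.3% for SF3B1, the branch point clamp that is itself recurrently mutated in cancer, to 18.5% for SF3B3. The median over all genes tested was 19.1%, and it was 13.01% over the 3502 genes at least as high as PHF5A. By that second measure SF3B1, SF3B2, SF3B4, SF3B5 and SF3B14 lay below the median and SF3A1, SF3A2, SF3A3, SF3B3 and PHF5A above it.

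**Figure D1:**
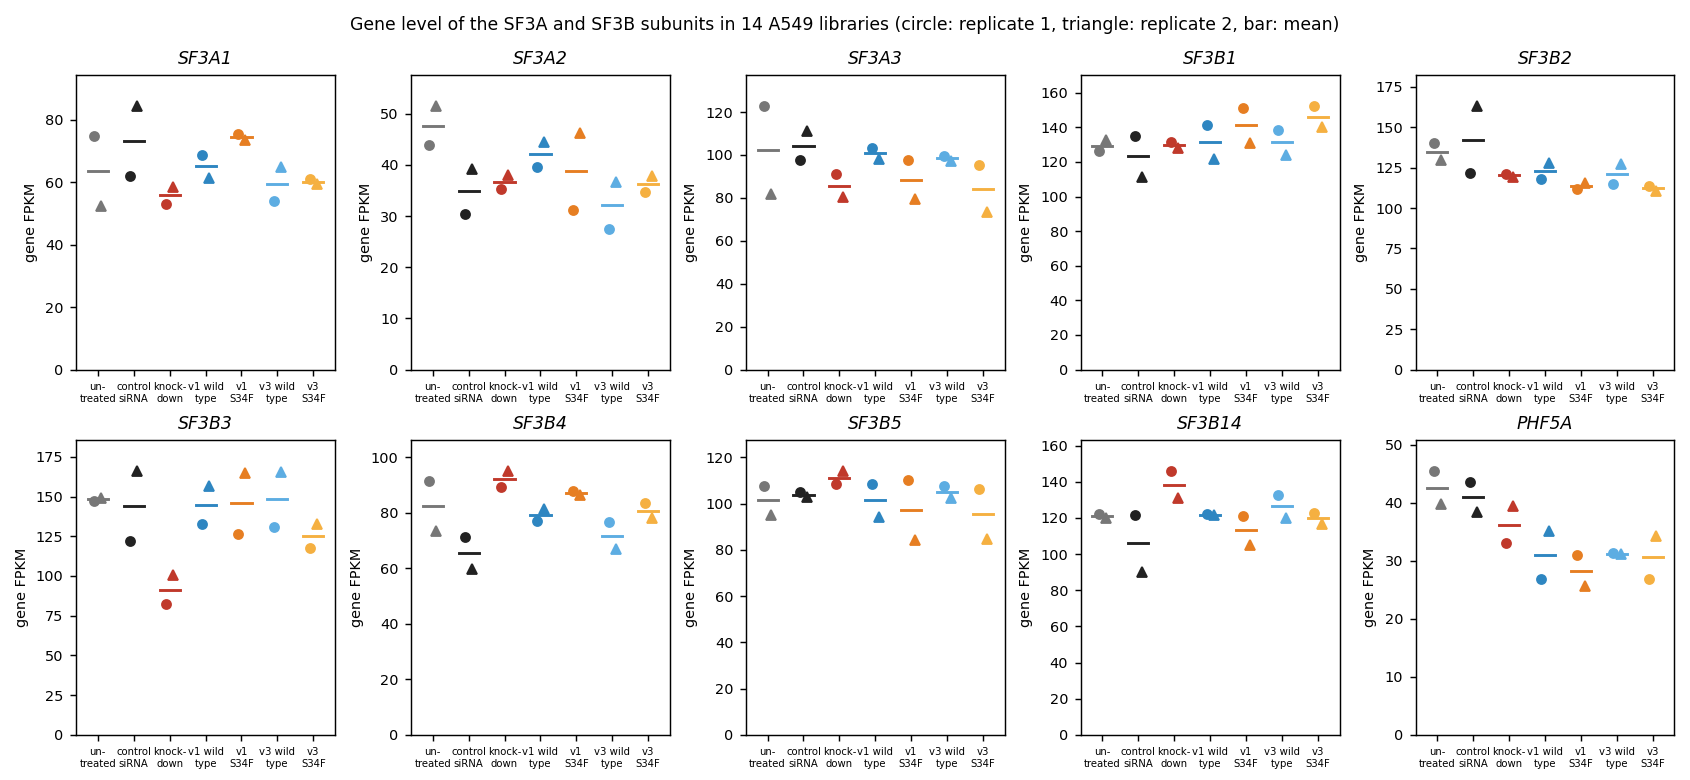
Gene FPKM (vertical axes, from 0) of each of the 10 subunits in the 7 treatments (horizontal axes), with replicate 1 as a circle, replicate 2 as a triangle and the mean of both as a bar. SF3B3 in the knockdown, at 82.1 and 100.7 FPKM, is the 1 treatment of any subunit that lies wholly outside the range of the other 12 libraries. How many of all genes have such a treatment was not counted.

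The knockdown asks what loss of U2AF1 does to these genes. In limma without a replicate block, 0 of the 10 subunits passed an adjusted p of 0.05, against 2.85% of the 14233 genes tested, and 3 subunits had an unadjusted p under 0.05: SF3B3, SF3B4 and SF3B14. The replicate numbers pair the libraries by the check given with the processing, and with the number as a block these 3 passed, against 11.8% of all genes under that fit. The median log2 difference of the 10 subunits was -0.05 and that of all genes -0.01, with 5 of 10 subunits above 0 and 48.3% of all genes above 0.

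SF3B3 (ENSG00000189091) lies in the deposited tables at chr16:70557691-70608820 of GRCh37. The gene had 147.4 and 149.0 FPKM in untreated cells, 121.9 and 165.8 in the negative control, and 82.1 and 100.7 in the knockdown. It had 132.6 and 156.4 FPKM with wild-type v1, 126.5 and 165.0 with v1 S34F, 131.1 and 165.4 with wild-type v3, and 117.3 and 132.9 with v3 S34F. Both knockdown libraries lay below all 12 others, a separation that was not counted over all genes. Replicate 1 lay below replicate 2 in all 7 treatments. The knockdown mean of 91.4 ± 13.2 FPKM (SD, n = 2) was 63.5% of the 143.8 ± 31.0 (SD, n = 2) in the negative control. On the log2(FPKM + 1) scale the difference was -0.64 (SE 0.19, 95% interval -1.05 to -0.23, limma adjusted p 0.096 without the block and 0.0051 with it).

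The lead coding isoform of SF3B3, ENST00000302516, had closer replicates. It had 27.6 and 28.5 FPKM in the knockdown, and from 44.1 to 56.4 in the other 12 libraries. The authors' upper confidence bounds for the knockdown libraries, 29.1 and 30.0 FPKM, lay below the lowest value of any other library. Its log2 difference from the negative control was -0.73 (SE 0.12, limma adjusted p 0.024 over 42893 isoform levels, of which 1.17% were called). This measure was added after the data were seen. The call was lost when negative control replicate 2 (adjusted p 0.13), knockdown replicate 1 (0.13) or knockdown replicate 2 (0.14) was left out, with differences of -0.63, -0.71 and -0.76. With the isoforms of SF3B3 weighted by their length, also added afterwards, the gene's difference was -0.71 (adjusted p 0.0084), against 6.72% of genes called.

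SF3B4 (ENSG00000143368, chr1:149895209-149900236 of GRCh37), which contacts the RNA upstream of the branch point, had 71.3 and 59.6 FPKM in the negative control and 89.4 and 94.97 in the knockdown. The 2 treatments did not overlap, and untreated cells, at 91.5 and 73.6 FPKM, had 1 library within the range of the knockdown and 1 between the treatments. The log2 difference was 0.49 (SE 0.13, 95% interval 0.21 to 0.78, limma adjusted p 0.072 without the block and 0.0196 with it). Against untreated cells the negative control itself lay at -0.33 (95% interval -0.62 to -0.04, adjusted p 0.94).

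SF3B14 (ENSG00000115128, chr2:24290454-24299313 of GRCh37), the small subunit next to the branch point, had 121.5 and 90.1 FPKM in the negative control and 145.7 and 130.8 in the knockdown. Untreated cells had 122.1 and 119.8 FPKM, close to negative control replicate 1. The log2 difference was 0.40 (SE 0.14, 95% interval 0.09 to 0.70, limma adjusted p 0.15 without the block and 0.034 with it). Negative control replicate 2 was low: without that library the difference was 0.18 (adjusted p 0.62), and without replicate 1 it was 0.61 (adjusted p 0.046, against 1.93% of all genes called).

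Negative control replicate 2 was the highest or lowest of the 14 libraries for 6 of the 10 subunits. It was highest for SF3A1 (84.3 FPKM), SF3B2 (163.1) and SF3B3 (165.8), and lowest for SF3B1 (111.5), SF3B4 (59.6) and SF3B14 (90.1). No other library was extreme for more than 2 subunits, and how often each library was extreme over all genes was not counted. The summed FPKM of 7 mitochondrial transcripts was 10964 in this library and from 22073 to 39458 in the other 13, and its part in the differences was not tested. Without this library the knockdown difference was -0.42 for SF3B3 (adjusted p 0.45) and 0.37 for SF3B4 (adjusted p 0.33).

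The other 7 subunits had no unadjusted p under 0.05 in the knockdown. Their log2 differences ran from -0.37 for SF3A1 (95% interval -0.77 to 0.03) and -0.28 for SF3A3 (-0.70 to 0.14) to 0.10 for SF3B5 (-0.23 to 0.42). SF3B1 had 131.7 and 128.2 FPKM in the knockdown, inside its 135.0 and 111.5 in the negative control, with a difference of 0.08 (-0.19 to 0.36). Of the SF3A subunits, SF3A2 had a difference of 0.08 (-0.36 to 0.52). The most abundant coding isoform alone, a measure added after the data were seen, gave -0.11 for SF3A1 and -0.05 for SF3A3. It gave -0.26 for SF3B2, -0.21 for PHF5A, 0.10 for SF3B5, 0.19 for SF3B1 and 0.17 for SF3A2.

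The wild-type constructs ask whether U2AF1 added after the knockdown moves the same genes. With them U2AF1 stood far above its level in the negative control, so they do not restore that level. This comparison uses the same 2 knockdown libraries, so it is not independent of the one before. In limma 0 of the 10 subunits passed, against 1.43% of all genes, and 2 had an unadjusted p under 0.05, SF3B3 and SF3B4. With the replicate block SF3B3 passed, against 7.52% of all genes.

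SF3B3 had a mean of 146 FPKM over the 4 wild-type libraries and 91.4 in the knockdown, and the 4 libraries did not overlap the knockdown. The log2 difference was 0.67 (SE 0.16, 95% interval 0.32 to 1.03, limma adjusted p 0.072 without the block and 0.0032 with it). For the isoform ENST00000302516 it was 0.84 (SE 0.10, adjusted p 0.0075, against 1.31% of isoform levels called), and without knockdown replicate 1 or 2 the adjusted p was 0.056 or 0.079. With isoforms weighted by length the difference of SF3B3 was 0.81 (adjusted p 0.0042, against 3.44% of genes called).

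SF3B4 had 77.0 and 81.3 FPKM with wild-type v1 and 76.7 and 67.1 with wild-type v3, all below its 2 knockdown values. Its difference was -0.29 (95% interval -0.54 to -0.04, limma adjusted p 0.25). SF3B14 had -0.15 (-0.42 to 0.11), and its wild-type v3 replicate 1, at 132.6 FPKM, lay inside the range of the knockdown. PHF5A, which holds the branch point adenosine with SF3B1, had -0.22 (-0.54 to 0.11). The other 6 subunits lay between -0.11 for SF3B5 and 0.22 for SF3A3.

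**Figure D2:**
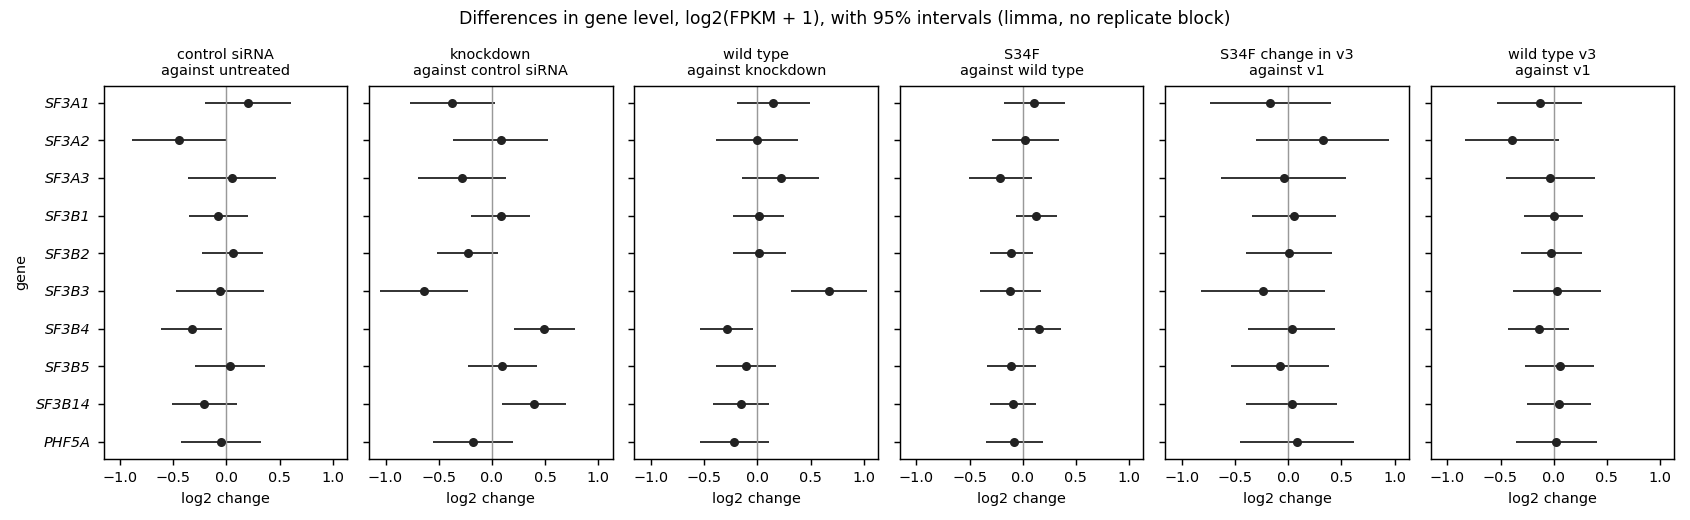
Log2 difference in gene level (horizontal axes, log2 of FPKM + 1) of the 10 subunits in the 6 comparisons, with points for the estimates and lines for 95% intervals from limma without a replicate block. SF3B3 lies at -0.64 in the knockdown and at 0.67 with the wild-type constructs against the knockdown, and in the S34F comparison all 10 intervals include 0.

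The S34F comparison sets the 4 S34F libraries against the 4 wild-type ones, averaged over v1 and v3. No subunit passed in limma, with or without the block, against 1.85% of all genes without it and 7.98% with it, and none had an unadjusted p under 0.05. The 10 estimates ran from -0.21 for SF3A3 to 0.15 for SF3B4, and their 95% intervals lay within -0.51 and 0.39. Differences beyond these bounds lay outside all 10 intervals. The median of the subunits was -0.09 and that of all genes 0.02.

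SF3B1 had 141.1 and 122.0 FPKM with wild-type v1, 151.2 and 131.0 with v1 S34F, 138.6 and 124.2 with wild-type v3, and 152.2 and 140.2 with v3 S34F. S34F was the higher of each pair of libraries with the same isoform and replicate number, while the groups overlapped. The difference was 0.13 (SE 0.09, 95% interval -0.07 to 0.32, limma adjusted p 0.54). SF3B2, the large partner of SF3B4, had 118.1 and 127.6 FPKM with wild-type v1, 111.8 and 115.6 with v1 S34F, 115.0 and 127.2 with wild-type v3, and 113.9 and 110.8 with v3 S34F. It was the lower with S34F in each such pair, by -0.11 (95% interval -0.31 to 0.09, adjusted p 0.63). Likewise SF3B4 was higher, and SF3A3 and SF3B14 were lower, with S34F in every such pair. Genes of this kind were not counted over all genes.

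The S34F difference did not pass a test between v3 and v1 for any subunit: 0 of 10 were called and 0% of all genes, with 0 of the 10 at an unadjusted p under 0.05. The widest estimate was 0.32 for SF3A2 (95% interval -0.30 to 0.95), which includes differences of either sign. Between wild-type v3 and wild-type v1 the counts were again 0 of 10 and 0% of all genes, with none at an unadjusted p under 0.05. SF3A2 had 39.6 and 44.6 FPKM with wild-type v1 and 27.5 and 36.7 with wild-type v3, a difference of -0.39 (-0.83 to 0.05, limma adjusted p 1).

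Vector and control siRNA against untreated cells gave 0 of 10 subunits called and 0% of all genes, with 2 subunits at an unadjusted p under 0.05, SF3B4 (above) and SF3A2. SF3A2 had 43.8 and 51.5 FPKM in untreated cells and 30.4 and 39.2 in the negative control. The treatments did not overlap, and the difference was -0.45 (SE 0.20, 95% interval -0.89 to -0.01, limma adjusted p 0.97). PHF5A had 45.4 and 39.8 FPKM in untreated cells, 43.6 and 38.5 in the negative control, and 33.1 and 39.5 in the knockdown. In the 8 construct libraries it ran from 25.6 to 35.1 FPKM, below all 4 libraries without U2AF1 siRNA, a pattern seen after the values and not among the comparisons tested.

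Other proteins of the same step show what moved around the subunits. Of 13 genes for proteins that act with the U2 snRNP, 2 passed as higher and 1 as lower in the knockdown, against 0.787% and 2.06% of all genes, with a median of 0.07. SF1, which marks the branch point before the U2 snRNP arrives, rose from 157.7 and 177.9 FPKM to 256.8 and 332.2 (log2 difference 0.80, limma adjusted p 0.018). U2AF2 rose from 172.5 and 226.5 FPKM to 273.3 and 340.2 (0.62, adjusted p 0.043). DDX46, the helicase that works on the U2 snRNP while it docks, fell from 69.8 and 84.3 FPKM to 47.8 and 45.0 (-0.71, adjusted p 0.016). Leaving out 1 library could end the call of SF1, U2AF2 and DDX46: the largest adjusted p, without knockdown replicate 2, was 0.16 for SF1, 0.29 for U2AF2 and 0.15 for DDX46.

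DDX46 was the 1 gene of the 13 to pass in the wild-type comparison (0.72, adjusted p 0.011), and without knockdown replicate 1 or 2 its adjusted p was 0.079 or 0.21. Of all genes, 1.04% passed there as higher and 0.386% as lower. The block raised the count among the 13 to 2 higher and 4 lower, against 4.97% and 2.55% of all genes. With S34F, U2AF2 fell from a range of 200.9 to 237.7 FPKM in the 4 wild-type libraries to 96.4 to 116.5 in the 4 S34F ones (-1.03, adjusted p 0.0025, and at most 0.015 without any 1 of the 8 libraries). It was the 1 gene of the 13 to pass there, against 0.583% of all genes as higher and 1.27% as lower. With the block CHERP passed too (0.33, limma adjusted p 0.032, against 7.98% of all genes called).

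Of 9 genes for the Sm proteins and the U2-specific core proteins, 7 lay above 0 in the knockdown, beside 48.3% of all genes, with a median of 0.28 beside -0.01. SNRPF passed (0.48, adjusted p 0.046), 1 of 9 against 2.85% of all genes. Without any 1 of the 4 libraries SNRPF did not pass (adjusted p 0.10 without negative control replicate 1 to 0.26 without knockdown replicate 2). With the block SNRPD1 also passed (0.41, adjusted p 0.026), under a fit that called 11.8% of all genes. None of the 7 genes for proteins of the minor U11/U12 particle passed in the knockdown without the block, although all 7 estimates were above 0 with a median of 0.26, beside 48.3% of all genes above 0. With the block ZCRB1 passed (0.37, adjusted p 0.024), and 1 of 7 is near the 11.8% of all genes called under that fit. Against untreated cells the negative control itself had medians of -0.18 over the 9 core genes and -0.15 over the 7 U11/U12 genes. The median over all genes was -0.02. Above 0 lay 2 of the 9 and 1 of the 7, beside 45.9% of all genes. SF3B is shared with that minor particle, while SF3A is not.

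**Figure D3:**
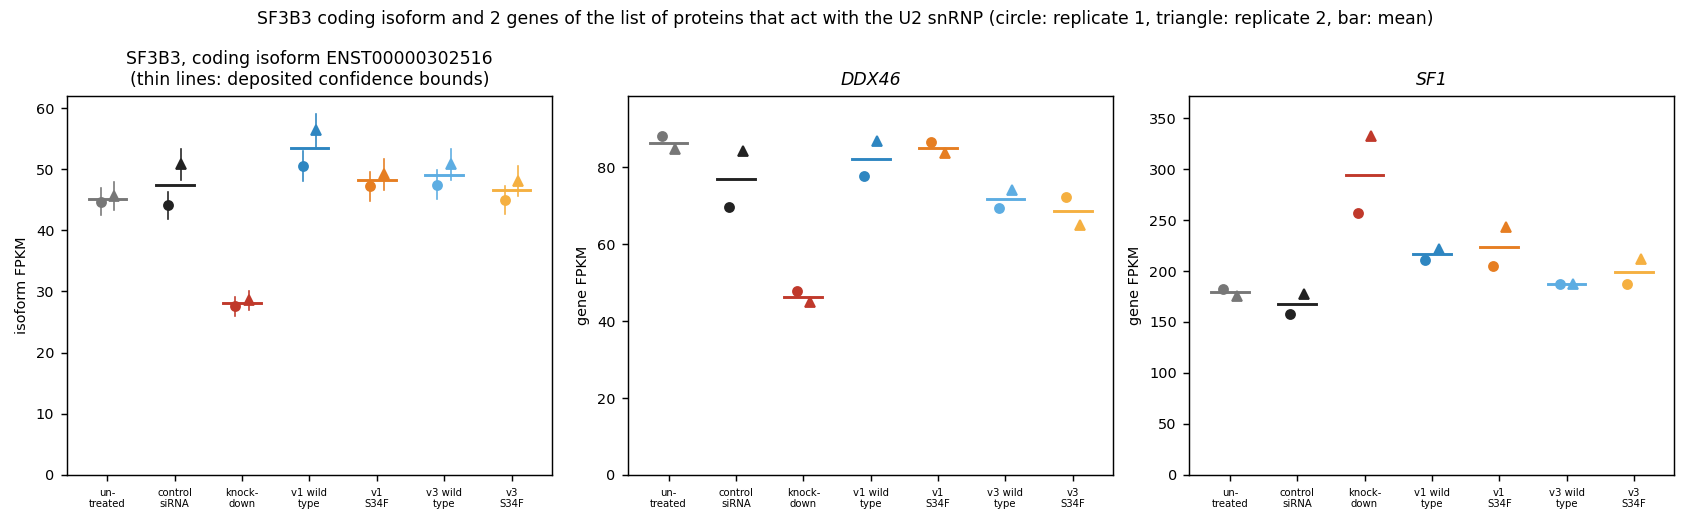
FPKM (vertical axes, from 0) of the SF3B3 coding isoform ENST00000302516, of DDX46 and of SF1 in the 7 treatments, with a symbol per replicate and a bar for the mean, and thin lines in the left panel for the authors' confidence bounds. In the knockdown the isoform stands at 27.6 and 28.5 FPKM and DDX46 at 47.8 and 45.0, below the other 12 libraries, and SF1 stands at 256.8 and 332.2, above them.

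Isoform usage, the percent of a gene's FPKM that 1 isoform holds, could be tested for 26 of the 78 subunit isoforms. In limma 0 of the 26 passed in any of the 6 comparisons. The background was 0.00959% of isoforms for vector and control siRNA, 0.129% for the knockdown, 0.273% for wild type against the knockdown, 0.681% for S34F, 0% for the S34F difference between v3 and v1 and 0.00479% for wild-type v3 against v1. In the same order 1, 2, 0, 1, 2 and 2 of the 26 had an unadjusted p under 0.05.

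The genes differ in how much of the FPKM in isoforms typed by GENCODE 29 sits in noncoding ones, such as retained introns. For SF3B3 this share ran from 55.4% to 64.6% over the libraries, for SF3A1 from 36.3% to 57.6% and for SF3A2 from 19.4% to 33.1%. For SF3A3 it ran from 65.9% to 80.2%, where only 50.6% to 63.3% of the FPKM is in typed isoforms. For SF3A2 the typed part ran from 65.1% to 99.99% of the FPKM and was nearly all of it only with wild-type v3. The noncoding share stayed between 3.3% and 11.6% for SF3B1 and between 1.3% and 10.98% for SF3B2. SF3B4 and SF3B5 have no such isoform, and SF3B5 has 1 isoform and no intron. The noncoding isoforms of SF3B3 are short beside its coding isoform, and FPKM is per length, so the share is not one of reads. None of the 7 subunits in which the share was tested passed in any comparison, against at most 0.0267% of all genes, which was for S34F, and none had an unadjusted p under 0.05.

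In SF3B3 the share in the knockdown was 57.0% ± 1.7 (SD, n = 2) beside 56.2% ± 1.0 (SD, n = 2) in the negative control, a difference of 0.78 points (95% interval -8.06 to 9.63). The coding isoform was 33.6% and 28.3% of SF3B3 in the knockdown, and 36.2% and 30.6% in the negative control. The isoform with the extra exon was 5.5% and 4.8% in the knockdown and 5.2% and 6.3% in the negative control, at 2.2 to 12.9 FPKM over all libraries.

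The splice sites shown above can be set beside the SF3B3 isoforms whose exons run across them. ENST00000568539 covers the T-preceded site of exon 16, and its S34F difference in usage was 2.1 points (95% interval -3.9 to 8.0). ENST00000563739 covers the C-preceded site of exon 17 and had -2.1 points (-7.5 to 3.2). ENST00000565990 covers the C-preceded site of exon 24 and had -2.0 points (-7.4 to 3.3). The isoform that uses the C-preceded site of the extra exon had 2.1 points (-1.2 to 5.4). No interval of the 4 excluded 0. ENST00000568539 also uses the sites of exons 17 and 18, ENST00000563739 that of exon 18 and ENST00000567635 that of exon 12. Their usage is therefore not tied to 1 site. The isoforms that cover the sites of exons 12 and 18 had a mean usage below 5% and were not tested.

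In SF3A1 the retained-intron isoform ENST00000471342 had the smallest adjusted p of the 26 isoforms with S34F. Its usage was 21.4% and 18.2% with wild-type v1 and 17.0% and 16.8% with wild-type v3, against 33.0% and 24.0% with v1 S34F and 28.9% and 27.3% with v3 S34F. The groups did not overlap, but the usage in untreated cells, 29.7% and 27.4%, lay within the range with S34F. The difference was 9.9 points (SE 2.8, 95% interval 3.6 to 16.2, limma adjusted p 0.17).

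SF3A2 had an isoform that was nearly absent in 1 treatment. ENST00000591121, 406 bases long and without a type in GENCODE 29, stood at 0.0027 and 0.0078 FPKM with wild-type v3, with the authors' upper bounds at 0.53 and 0.61. In the other 12 libraries it stood at 5.1 to 13.8 FPKM. Its usage difference between wild-type v3 and v1 was -29.2 points (SE 5.4, 95% interval -41.4 to -17.0), and this did not pass (limma adjusted p 0.66). The coding isoform ENST00000221494 held 74.4% and 63.1% of SF3A2 with wild-type v3 and 45.3% and 52.7% with wild-type v1. The locus of SF3A2 overlaps that of PLEKHJ1, at a mean of 24.7 FPKM, and the tables do not say whether strand was used, so reads of the shared stretch cannot be told apart.

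In SF3A3 the isoform ENST00000489537 had a usage of 14.8% and 14.4% in the negative control and 4.3% and 8.2% in untreated cells. In the knockdown it was 7.3% and 3.1%, a difference of -9.4 points (SE 2.7, 95% interval -15.5 to -3.4, limma adjusted p 0.26). Both negative control libraries were above the other 12. These isoforms of SF3A1, SF3A2 and SF3A3 were singled out after their values were seen.

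**Figure D4:**
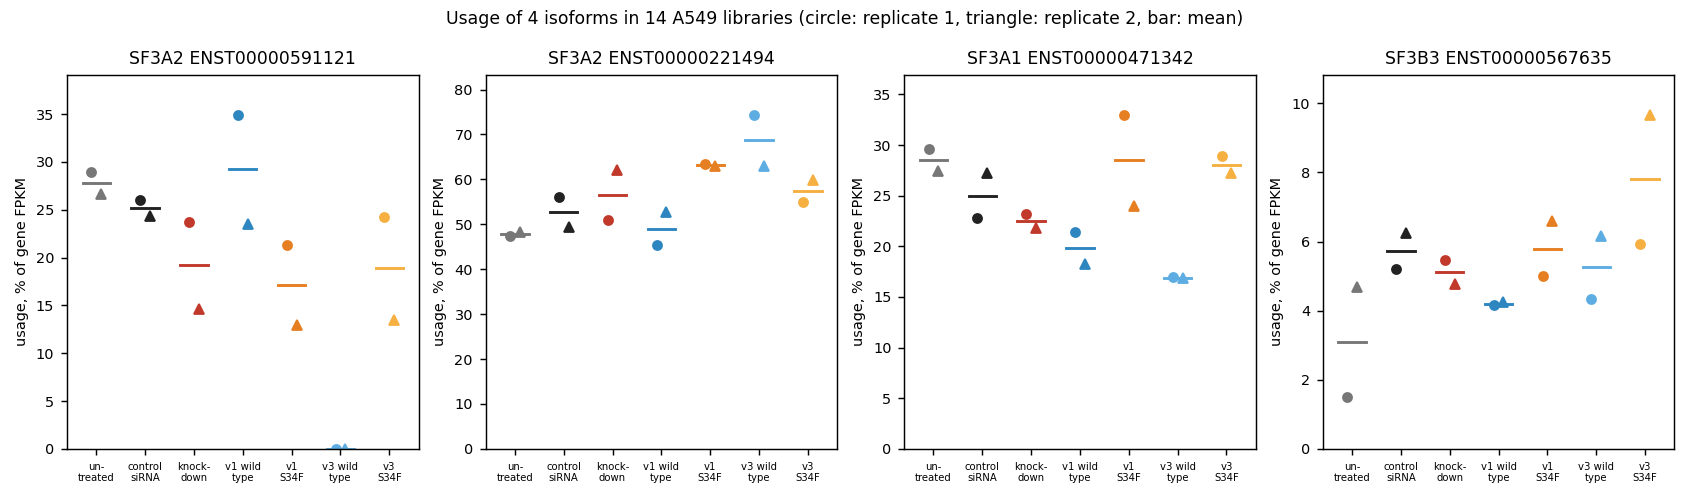
Usage in percent of the gene's FPKM (vertical axes, from 0) of 4 isoforms in the 7 treatments, with a symbol per replicate and a bar for the mean. ENST00000591121 of SF3A2 is near 0 with wild-type v3, ENST00000471342 of SF3A1 is 24.0% to 33.0% with S34F and 16.8% to 21.4% with wild type, and ENST00000567635 of SF3B3, the isoform with the extra exon, ranges from 1.5% to 9.7%.

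Across the 14 libraries the subunits did not vary as a block. Pearson's r of log2(FPKM + 1), given as a description over libraries that share treatments and replicate numbers, had a median of -0.004 over the 45 pairs. It ran from -0.83 between SF3B1 and SF3B2 to 0.59 between SF3B4 and SF3B14. The genes whose pattern was most like that of SF3B3 were CEP72 (r 0.95), TBC1D10B (0.92) and GAK (0.92). For SF3B1 they were C14orf1 (0.91), CMTM8 (0.91) and PRCP (0.89), and for PHF5A they were ARPC1A (0.94), FAM111B (0.93) and VDAC1 (0.92). The mean of the 10 standardised subunits was closest to SLC25A23 (0.87), HNRNPUL1 (0.85) and CARHSP1 (0.84).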

How the data were processed

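The submitters' processing notes name Trimmomatic 0.30, TopHat2 2.0.12 and the build GRCh37. For the quantifier, its annotation, its strand setting and any scaling between libraries, nothing is stated in the labels or headers used here. Per the file headers, the deposited tables hold an FPKM for each isoform with confidence bounds, and a coverage signal, which the authors give per isoform and which served here for relative depth. The members and lists were chosen with earlier results of these data known.

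Gene FPKM was summed over isoforms. limma 3.58.1 (R 4.3.3, intensity trend) was fitted on log2(FPKM + 1), on usage in percent and on the noncoding share, with 1 mean for each of 7 treatments and Benjamini-Hochberg adjustment over all 14233 genes (mean FPKM of at least 1, 11 genes above it with an estimate not marked OK left out), 41727 isoforms (mean usage 5 to 95%) or 7486 genes. The scripts were tested on simulated data. All 10 subunits, their lead isoforms, list genes that passed and the genes of most similar pattern were named. Same-numbered libraries deviated together (r 0.16 to 0.57 over all 21 pairs of treatments), so the number was used as a block in a second fit. Transcript types and sequences are from GENCODE 29 (GRCh38). The lead coding isoforms of SF3A2, SF3B3 and SF3B5 differ there in length from those deposited.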

Additional observations from a re-analysis of the deposited data

How the results depend on the processing

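The count of subunits called in the knockdown, 0, became 3 with the replicate block, 2 with isoforms weighted by length and 1 with the most abundant coding isoform alone, and it ran from 0 to 1 when 1 library was left out (1 without negative control replicate 1). The count for wild type against knockdown, 0, became 1 with the block, 1 with the weighting and 1 with the coding isoform alone, and stayed at 0 when 1 library was left out. In the knockdown the share of all genes called was 2.85% without the block, 11.8% with it and 6.72% with the weighting. Of isoform levels 1.17% were called. For wild type against knockdown these shares were 1.43%, 7.52%, 3.44% and 1.31%. The 1 of 10 with the block there is near the share of all genes. The other 185 of 192 alternative counts, of genes, isoforms and noncoding shares, equalled those reported, and the block changed no other call of a subunit. Of 939 alternative values of single subunits and isoforms, 92 took another sign without a call, of which 6 were among the 120 under upper quartile scaling or quantile normalization, and none reversed a call. The block also called DHX15 in the knockdown (0.38) and, in the wild-type comparison, SNRPD1 (-0.36) and ZCRB1 (-0.33). The weighting and the coding isoform alone were chosen after seeing the data. With 2 libraries a treatment, 1 lone library is assumed to vary like the other treatments when its partner is left out. The number of reads is unknown, so no counting error can be given.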
